A study of Mus musculus with 12 samples.

Results

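A pair of stable derivatives of the murine breast carcinoma line 4T1 is compared here. The line named FL is read as carrying full-length Mkl1, and the line named ΔSAP as carrying Mkl1 without its SAP domain. The comparison rests on 6 of the 12 arrays of the series, 3 titled FL and 3 titled ΔSAP. The 2-fold calls were limited to the 30212 of 34760 probe sets with a mean log2 value of at least 4 over the 12 arrays. Gene list counts, and the fit behind all of these, had no such limit. A control 4T1 line and a line named mutB1, for another altered Mkl1, supplied 3 arrays each and served as reference levels. The control line separates what the FL line gained or lost from what the ΔSAP line gained or lost itself.

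Every line had the labelled genetic background BALB/cfC3H, and every culture was held in 0.03% serum for 48 h before total RNA was taken, of which 100 ng was amplified for the array. The arrays are Affymetrix Mouse Gene 1.0 ST arrays, whose probes are spread along each transcript. The labels name a single stable line for each construct and do not name the vector or promoter, so construct and line cannot be told apart. The design text describes triplicate cultures of each line, and the p-values measure the spread between those cultures only.

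Mkl1, now named Mrtfa, is an actin-regulated transcriptional coactivator. It is held in the cytoplasm by monomeric actin, enters the nucleus when actin polymerizes, and is best known for activating serum response factor (Srf) at genes of the cytoskeleton and contraction. Its SAP domain, named after the proteins SAF-A/B, Acinus and PIAS, is a putative DNA-binding motif, and gene regulation through it has been described as separate from Srf.

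The values are log2 expression per probe set, and every change is FL minus ΔSAP on that scale unless another pair is named. A probe set was called where limma, fitted to all 12 arrays with 4 line means, gave an adjusted p of at most 0.01 and the fold was at least 2. These are the filters of the design text. A mean below 6.35, the lowest median of any array, is called low: it may be background, and a difference from it may understate the true change. Arrays of the FL line, and those of the ΔSAP line, correlated within their line at 0.996 to 0.997 over all probe sets, and FL arrays with ΔSAP arrays at 0.993 to 0.995.

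The construct gene was checked first. Mrtfa stood at 9.28, 9.28 and 9.26 in control, at 12.06, 12.14 and 12.03 in FL and at 11.94, 11.87 and 11.95 in ΔSAP. FL and ΔSAP both lay far above control. Their arrays did not overlap, but their difference of 0.16 ± 0.06 (SE) did not pass (limma adjusted p = 0.0776). Where the probes lie with respect to the deleted part was not examined, so this value does not test the deletion. The Mrtfa level of mutB1, also an altered Mkl1 line, is not set beside them here. Srf differed by 0.03 ± 0.05 and the paralogue Mrtfb by -0.06 ± 0.04, and neither passed (limma adjusted p of 0.771 and 0.461). Of 7 genes of the Mrtf and Srf factor list only Elk3, an Ets partner of Srf, passed, at -0.33 ± 0.04 (limma adjusted p = 0.000137).

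The labelled cell type, mammary epithelial carcinoma, was matched by its markers: the simple keratins Krt8 and Krt18 stood at 12.52 or more on every FL and ΔSAP array. Of 14 mammary epithelial markers 4 were low in every line, the basal keratin Krt5 and Elf5 among them. Of 17 leukocyte markers 13 were low in every line, including the pan-leukocyte gene Ptprc, and the list mean ranged from 5.50 to 5.52 over FL arrays and from 5.38 to 5.45 over ΔSAP arrays. Of 12 endothelial markers 9 were low in every line, including Pecam1, with list means of 6.11 to 6.19 in FL and 6.04 to 6.14 in ΔSAP. Of 14 fibroblast markers 7 were low in every line, with list means of 5.84 to 5.87 in FL and 5.76 to 5.85 in ΔSAP, and of 7 adipocyte markers 6 were, with list means of 5.06 to 5.15 and 4.99 to 5.18. The low limit is itself an array median, so many genes of any kind fall under it. The share of all genes low in every line was not counted, so these counts do not show that a cell type is absent. The highest member mean was 9.38 in FL and 9.74 in ΔSAP among fibroblast markers. Among endothelial markers it was 11.48 and 11.32, and among leukocyte markers 9.58 and 9.33.

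Between FL and ΔSAP 175 probe sets were called, 0.579% of those tested. Of these 75 were higher in FL (0.248%) and 100 were lower (0.331%). They stand for 53 genes higher and 86 genes lower when only probe sets with a single gene symbol are used. Against the control line the same filters called 636 probe sets in FL (2.11%, with 1.39% higher and 0.715% lower) and 467 in ΔSAP (1.55%, with 1.1% higher and 0.444% lower). At the fold limit, C1s1 lay just inside with a change of 1.00 and Grap just outside with 0.995, and in the other direction Arhgef19 lay just inside with -1.01 and Mvd just outside with -0.99. A further 12 called probe sets carry several symbols, all 12 higher in FL, and 20 carry none, 9 of them higher. The largest rise of all, 3.78 ± 0.45 (SE, limma adjusted p = 0.000241), belongs to a probe set with several symbols. Its mean was 7.57 in FL against low means of 4.42 in control, 4.34 in mutB1 and 3.79 in ΔSAP. Its SD was 1.00 in control and 0.66 in mutB1, against 0.24 in FL and 0.09 in ΔSAP.

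The called probe sets were then divided by where each line stood against control, with a line counted as near control when it lay within 1.5-fold. A SAP-dependent gain, called higher in FL than in both other lines with ΔSAP near control, was found for 23 probe sets (13.1% of those called) and 18 genes. A gain in the ΔSAP line itself, with FL near control, was found for 35 probe sets (20.0%) and 30 genes. The corresponding losses were 28 probe sets and 21 genes for the SAP-dependent loss below control and 2 probe sets (1.14%) and 2 genes for a loss in the ΔSAP line. The other 87 probe sets (49.7%) and 68 genes met none of these rules. These classes reuse the FL, ΔSAP and control arrays, so they describe positions and are not independent tests.

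**Figure D1:**
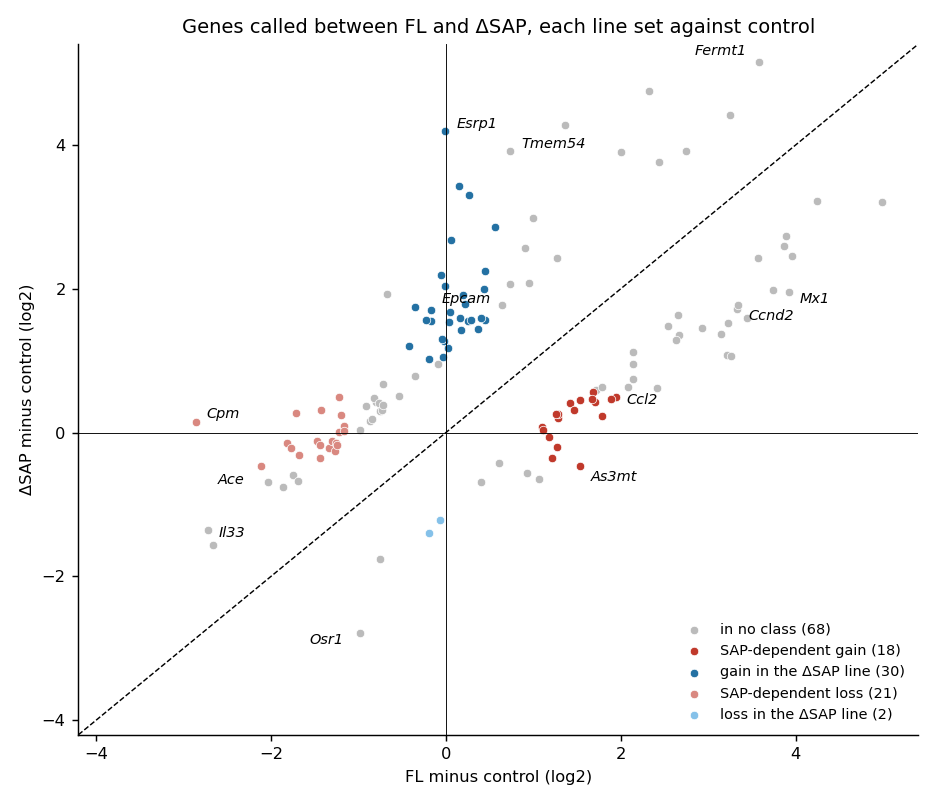
Each point is a gene called between FL and ΔSAP, placed by its log2 change from control in FL (x axis) and in ΔSAP (y axis); the dashed line marks equal changes and colours mark the classes. The 18 genes of the SAP-dependent gain lie along the right of the horizontal axis and the 30 genes of the ΔSAP gain lie along the top of the vertical axis.

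The 18 genes of the SAP-dependent gain were As3mt, Icam1, Cd74, Hspb1, Ccl2, Tfpi, Igf2bp1, Ly9, Nos2, Il15ra, Cxcl2, Ccl7, Parp11, Spats2l, Cfb, Cxcl5, Them6 and C1s1. In FL they stood 1.09 to 1.94 above control on the log2 scale, with a median of 1.44. In ΔSAP the same genes lay between -0.47 and 0.57 from control, with a median of 0.26. Near control did not mean equal to control: 8 of the 18 genes were still above it in ΔSAP at an adjusted p of at most 0.01, and 2 were below it. Among all 19937 genes, 9.38% passed above control in ΔSAP on that rule and 11.7% passed below it.

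As3mt, which encodes the enzyme that methylates arsenic, had the largest difference of the class. It stood at 8.61, 8.53 and 8.75 in FL, at 6.56, 6.83 and 6.50 in ΔSAP and at 7.08, 7.16 and 7.06 in control. Every FL array lay above control and every ΔSAP array below it, and FL exceeded ΔSAP by 2.00 ± 0.09 (limma adjusted p = 6.96e-07).

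Icam1, the endothelial and epithelial adhesion molecule that leukocyte integrins bind, took the same order. The Icam1 values were 8.94, 8.91 and 8.86 in FL, 7.34, 7.31 and 7.35 in ΔSAP and 7.73, 7.61 and 7.72 in control. FL was 2.96-fold above ΔSAP (1.57 ± 0.04, limma adjusted p = 2.32e-08), and ΔSAP differed from control by -0.35 with no overlap of arrays.

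Ccl2 and Ccl7, monocyte-attracting chemokines whose genes are neighbours, rose together. Ccl2 stood at a mean of 12.03 ± 0.03 (SD, n = 3) in FL, at 10.58, 10.56 and 10.60 in ΔSAP and at 10.11, 10.18 and 9.98 in control. The FL arrays were the highest and the ΔSAP arrays still lay above control, by 0.50 (limma adjusted p = 4.15e-05), so the class rule held only because this is under 1.5-fold. FL exceeded ΔSAP by 1.45 ± 0.05 for Ccl2 (limma adjusted p = 8.97e-08) and by 1.08 ± 0.08 for Ccl7 (adjusted p = 1.47e-05). The neutrophil-attracting chemokines Cxcl2 and Cxcl5 belong to the class as well, at 1.11 ± 0.12 and 1.01 ± 0.06, but Cxcl2 had a low mean in every line.

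Cd74, the invariant chain that guides MHC class II molecules, stood at 8.72, 8.67 and 8.60 in FL and at 7.14, 6.99 and 7.19 in ΔSAP, where control had 6.81, 6.77 and 7.05. Only the ΔSAP and control arrays overlapped, and the difference between FL and ΔSAP was 1.56 ± 0.08 (limma adjusted p = 1.73e-06). The mutB1 line was lower still, with a low mean of 5.97.

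Hspb1, a small heat shock protein that binds actin filaments and protects against stress, stood at 12.62, 12.70 and 12.66 in FL and between 11.09 and 11.54 on all arrays of the other 3 lines. FL exceeded ΔSAP by 1.47 ± 0.10 (limma adjusted p = 6.01e-06). Ly9, a cell surface receptor of lymphocytes, showed the same pattern, with 10.43, 10.50 and 10.44 in FL and 9.20 to 9.32 elsewhere, and a difference of 1.24 ± 0.04 (limma adjusted p = 4.25e-08).

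The mutB1 line lay below FL for most of the class, but not for every gene. FL was above mutB1 in 16 of the 18 genes at a limma adjusted p of at most 0.01, 8 of them at 2-fold. It was below mutB1 in 1. The class rule selects high FL values, so these counts are a description. The share of all genes passing between FL and mutB1 was not counted. Tfpi, the inhibitor of tissue factor that restrains coagulation, stood at 9.10, 8.98 and 9.12 in FL and at a like 9.05, 9.12 and 8.99 in mutB1, while ΔSAP had 7.71, 7.59 and 7.63. FL exceeded ΔSAP by 1.42 ± 0.06 (limma adjusted p = 2.18e-07). Igf2bp1, an RNA-binding protein of fetal and tumour cells, lay between, with 8.93, 8.97 and 9.05 in FL, 8.42, 8.57 and 8.53 in mutB1 and 7.63, 7.70 and 7.77 in ΔSAP (1.28 ± 0.07, limma adjusted p = 1.34e-06). Over the 18 genes the median of mutB1 minus control was 0.39, with 6 genes above control at that adjusted p and 2-fold. The share of all genes so called in mutB1 was not counted.

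**Figure D2:**
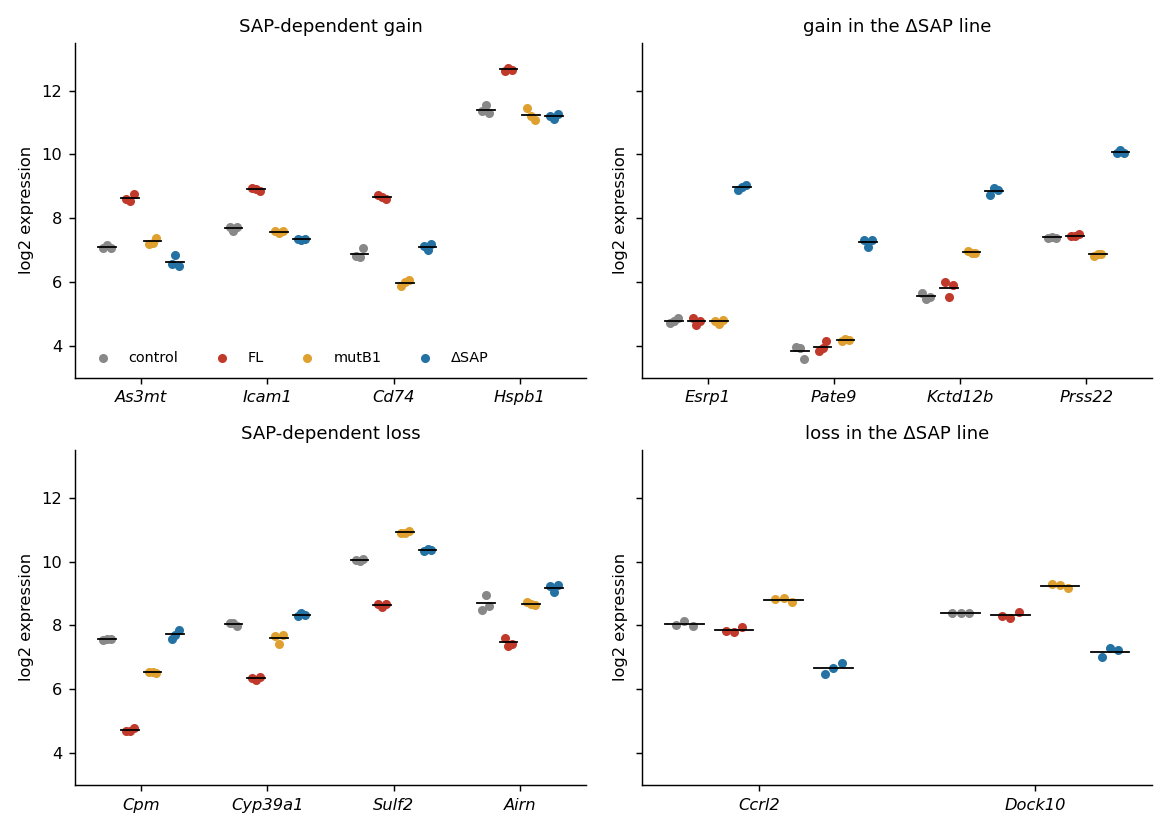
Log2 expression on each of the 12 arrays for the 4 genes with the largest FL against ΔSAP change in each class (both genes of the ΔSAP loss); points are arrays, bars are means of 3 arrays and colours are lines. FL stands apart in both left panels and ΔSAP stands apart in both right panels.

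Of the 30 genes of the gain in the ΔSAP line, Esrp1 had the largest difference between the lines. Esrp1, a splicing regulator that keeps epithelial isoforms, stood at 8.87, 8.97 and 9.05 in ΔSAP, and all 9 arrays of the other lines lay between 4.67 and 4.86. The FL mean was low, and the difference of -4.19 ± 0.07 (limma adjusted p = 5.26e-10) corresponds to 18.3-fold. Prss22, a serine protease of airway and other epithelia, stood at 10.06, 10.12 and 10.04 in ΔSAP, at 7.45, 7.43 and 7.49 in FL and at 7.38, 7.42 and 7.39 in control (-2.62 ± 0.04, limma adjusted p = 2.67e-10). Epcam, an epithelial adhesion molecule, stood at 10.12, 10.09 and 10.21 in ΔSAP and at 8.23, 8.27 and 8.29 in FL, against 8.42, 8.42 and 8.48 in control (-1.88 ± 0.08, limma adjusted p = 3.14e-07).

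Other members had their FL and control means near the floor of the scale. Pate9, of a family of small cysteine-rich secreted proteins, stood at 7.32, 7.11 and 7.31 in ΔSAP and between 3.59 and 4.22 on the other 9 arrays, a change of -3.28 ± 0.11 (limma adjusted p = 8.52e-08). The neighbouring Pate14 was lower in FL than in ΔSAP by a change of -2.92 ± 0.15 but was above control in both lines, so it fell in no class. Probes of these close relatives may share signal. Kctd12b changed by -3.04 ± 0.11, Mid2, a microtubule-associated ubiquitin ligase, by -2.29 ± 0.08 and Tbc1d30, a regulator of Rab GTPases, by -2.04 ± 0.07, each from a low FL mean.

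Acpp, the prostatic acid phosphatase gene, and F13a1, the A subunit of coagulation factor XIII, completed the leading members. Acpp stood at 8.51, 8.50 and 8.52 in ΔSAP and at 6.39, 6.02 and 6.36 in FL, whose mean was low, while mutB1 had 7.88, 7.90 and 7.84 and so was also above control. F13a1 stood at 9.47, 9.55 and 9.52 in ΔSAP and at 7.31, 7.25 and 7.69 in FL (-2.10 ± 0.10, limma adjusted p = 7.16e-07). In ΔSAP the 30 genes stood 1.02 to 4.19 above control, with a median of 1.59. In FL they lay between -0.42 and 0.56 from control, with a median of 0.06, and 14 of the 30 had a low control mean.

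The SAP-dependent loss was led by Cpm, a membrane carboxypeptidase. Cpm stood at 4.67, 4.69 and 4.77 in FL, all low, and at 7.58, 7.71 and 7.87 in ΔSAP, which overlapped the control values of 7.54, 7.58 and 7.58. FL was 8.03-fold under ΔSAP (-3.01 ± 0.06, limma adjusted p = 4.97e-09). Ace, the angiotensin-converting enzyme, stood at 9.28, 9.32 and 9.52 in FL, at a mean of 11.02 ± 0.01 (SD, n = 3) in ΔSAP and at 11.50, 11.45 and 11.51 in control (-1.64 ± 0.06, limma adjusted p = 1.09e-07). FL was thus furthest from control for both peptidases, and the ΔSAP arrays of Ace also lay under control.

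Sulf2, a sulfatase that edits heparan sulfate on the cell surface, stood at 8.66, 8.57 and 8.66 in FL, at 10.34, 10.40 and 10.38 in ΔSAP and at 10.05, 10.02 and 10.09 in control. Its 3 groups of arrays did not overlap, and FL and ΔSAP lay on opposite sides of control (-1.74 ± 0.04, limma adjusted p = 4.97e-09). Camsap3, which binds microtubule minus ends in epithelial cells, changed by -1.67 ± 0.06, and Marcks, a membrane-bound regulator of actin, by -1.55 ± 0.08. Arrdc3, an arrestin-related adaptor that brings surface receptors to degradation, changed by -1.44 ± 0.06, the bile acid enzyme Cyp39a1 by -1.99 ± 0.07 and the noncoding RNA Airn of the imprinted Igf2r region by -1.71 ± 0.11. The limma adjusted p of these 5 genes lay between 8.52e-08 and 5.09e-06. Over the 21 genes FL stood -2.86 to -1.16 from control and ΔSAP -0.47 to 0.49, with medians of -1.33 and -0.14. The median of mutB1 minus control was -0.23. FL was below mutB1 in all 21 genes at a limma adjusted p of at most 0.01, 13 of them at 2-fold. The class rule selects low FL values, so these counts are a description. The share of all genes passing between FL and mutB1 was not counted.

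A loss in the ΔSAP line was seen for 2 genes. Ccrl2, an atypical receptor that binds chemerin, stood at 6.49, 6.66 and 6.81 in ΔSAP, at 7.81, 7.78 and 7.95 in FL and at 8.02, 8.12 and 7.99 in control (2.29-fold, limma adjusted p = 7.03e-06). Dock10, an exchange factor for Cdc42 and Rac, stood at a mean of 7.17 ± 0.15 (SD, n = 3) in ΔSAP and at 8.31, 8.25 and 8.42 in FL, which overlapped control (1.16 ± 0.07, limma adjusted p = 4.61e-06). In both genes mutB1 was the highest line.

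No probe set was called by limma on opposite sides of control with 2-fold in each of the 3 comparisons. Without a minimum fold, 103 of the 30212 probe sets were on opposite sides at an adjusted p of at most 0.01 in all 3 comparisons. FL was above in 37 of them and below in 66. At an unadjusted p under 0.05, 501 of the 30212 were. The 3 comparisons share arrays, and the number that would pass without any difference was not estimated. The other settings tried also gave 0 such calls at 2-fold.

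The 68 genes outside the classes were divided further, by a split made after the values were seen. For 21 of them both lines were called above control with FL further, and for 9 both were with ΔSAP further. Another 17 were called against control in neither line, 7 were called above control in FL and 6 in ΔSAP with the other line outside the near limit, and 4, 2 and 2 fell below control in the remaining ways. Of the 21 genes, several are interferon-induced, such as Mx1, Rsad2, Oas2 and Zbp1. All 21 stood 2.14 to 4.98 above control in FL and 1.06 to 3.22 in ΔSAP. Among the 9 genes were Nipal2, Mal2 and Fermt1.

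Gene lists are counted next, by members with a limma adjusted p of at most 0.01 and no minimum fold. Among all 19937 genes, 8.37% were higher in FL and 8.35% were lower on that rule, and the median change of all genes was 0.03. The lists were drawn from textbook knowledge with earlier results of these data known, so their counts are descriptions.

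**Figure D3:**
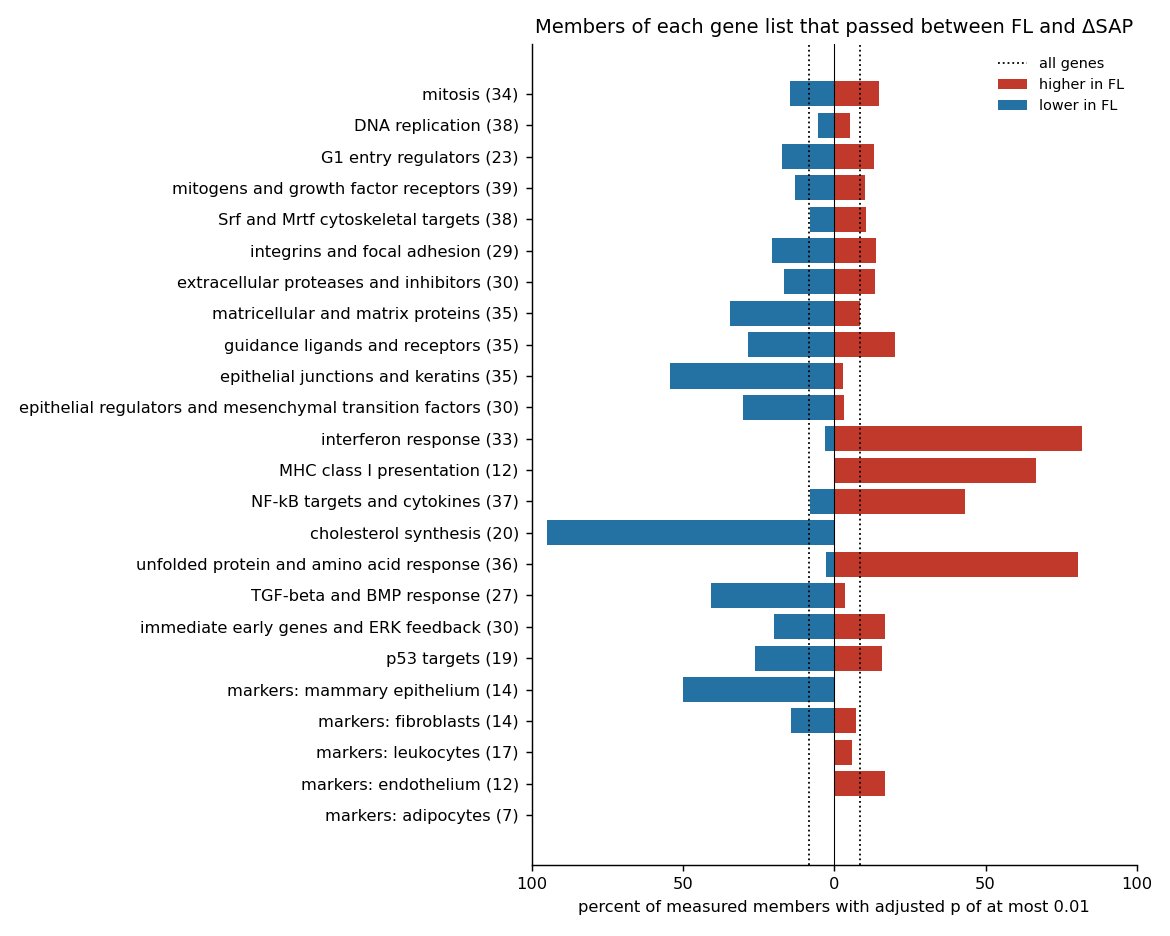
Percent of measured members of each gene list with an adjusted p of at most 0.01 between FL and ΔSAP, higher in FL to the right and lower in FL to the left, with the number measured in brackets; dotted lines mark the share of all genes in each direction. Interferon and stress lists reach furthest to the right, and cholesterol synthesis and epithelial junctions furthest to the left.

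Interferon response genes are switched on by interferon receptors through factors that bind the interferon-stimulated response element (ISRE). Of 33 measured members 27 were higher in FL than in ΔSAP and 1 was lower, with a median of 0.68. Of its members 8 passed 2-fold between FL and ΔSAP, and these met no class rule: both lines were called above control for each. The medians over control were 2.40 in FL and 1.82 in ΔSAP, and 32 and 31 members were called above control (12.6% and 9.38% of all genes). The mean of the list lay between 10.97 and 10.99 on FL arrays, between 10.71 and 10.86 on mutB1 arrays, between 10.24 and 10.29 on ΔSAP arrays and between 8.43 and 8.59 on control arrays.

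Mx1, an antiviral GTPase, stood at 8.84, 8.97 and 8.82 in FL, at 6.86, 6.81 and 7.07 in ΔSAP and at a low 5.01, 5.07 and 4.79 in control. FL exceeded ΔSAP by 1.97 ± 0.11 (limma adjusted p = 2.34e-06), and the 3 lines did not overlap. Ifi44l stood at 10.65, 10.71 and 10.67 in FL and at 8.87, 8.86 and 8.98 in ΔSAP (1.77 ± 0.12, limma adjusted p = 6.01e-06). The guanylate-binding protein Gbp4 differed by 1.76 ± 0.11 and the GTPase Iigp1 by 1.77 ± 0.10, and mutB1 was above FL for Iigp1 but not for Gbp4. Members of the Mx, Gbp, Irg and Trim30 families resemble each other, so a probe may pick up more than 1 of them. Ifi27 went the other way, with 10.41, 10.38 and 10.53 in FL, a mean of 10.98 ± 0.02 (SD, n = 3) in ΔSAP and 11.61, 11.63 and 11.57 in control (-0.54 ± 0.05, limma adjusted p = 3.62e-05).

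**Figure D4:**
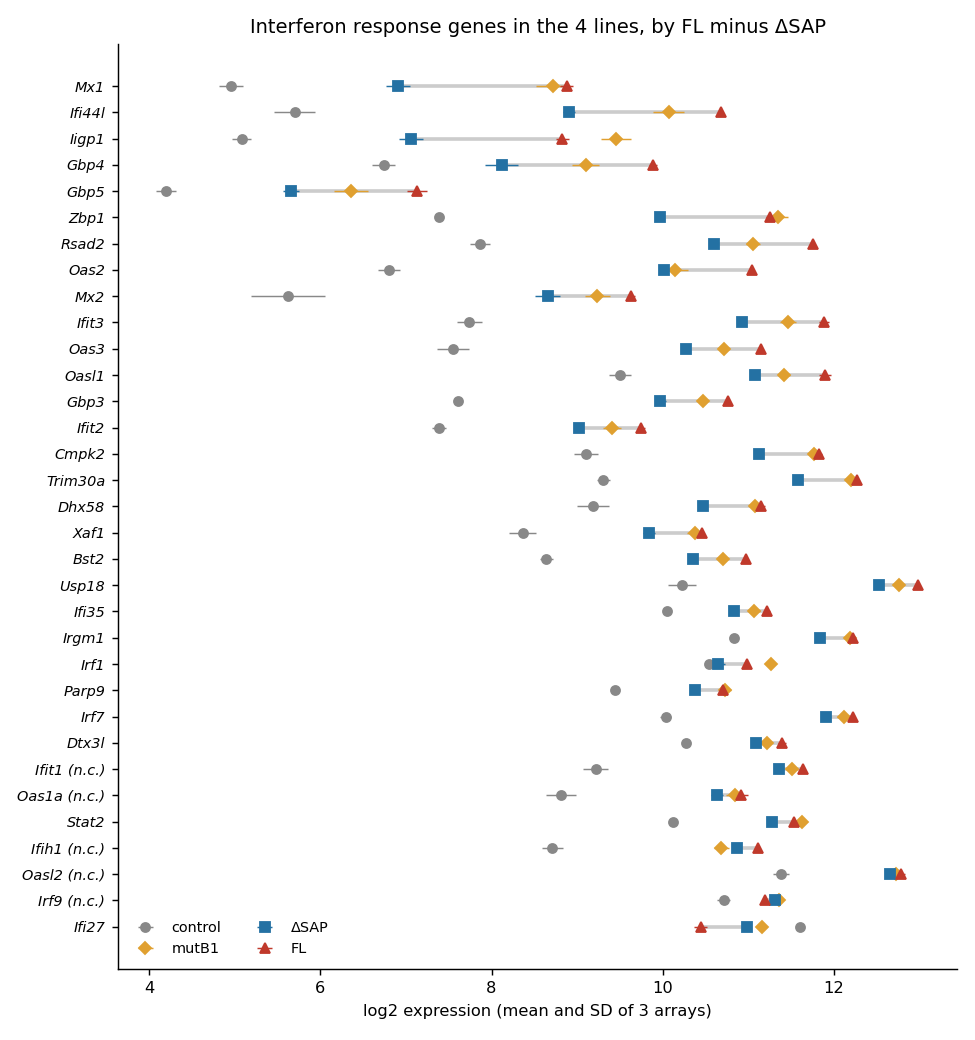
Mean log2 expression with the SD of 3 arrays for each of the 33 interferon response genes in the 4 lines, sorted by FL minus ΔSAP; n.c. marks members whose FL against ΔSAP difference did not pass. Control is lowest for every gene but Ifi27, and ΔSAP lies between control and FL for most.

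The promoters of this list are shown because so many of its members moved the same way. Promoter sequences are those of RefSeq on GRCm38.p6, and the 250 bases before the start were searched on both strands for the ISRE core, written GAAA, any 2 bases and GAAA. A gene was counted when any of its promoters held the core. The core was present in 11 of the 23 interferon genes with a promoter (47.8%) and in 3.46% of all 27025 genes with one. Of 13 such genes above control in both lines with FL further, 7 held it (53.8%). Capitals mark the core, which reads TTTC, 2 bases and TTTC when it lies on the other strand. The windows of 60 bases lie at chr12:26456538-26456597 on the minus strand for Rsad2, chr3:142496744-142496803 on the plus strand for Gbp5, chr5:120777700-120777759 on the minus strand for Oas3, chr7:104507856-104507915 on the minus strand for Trim30d and chr19:34640760-34640819 on the plus strand for Ifit1.
Rsad2: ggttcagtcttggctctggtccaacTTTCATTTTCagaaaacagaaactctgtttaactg
Gbp5: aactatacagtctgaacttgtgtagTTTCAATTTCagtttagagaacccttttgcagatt
Oas3: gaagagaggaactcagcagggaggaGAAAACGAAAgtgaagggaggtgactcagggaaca
Trim30d: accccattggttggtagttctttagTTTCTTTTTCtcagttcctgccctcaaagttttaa
Ifit1: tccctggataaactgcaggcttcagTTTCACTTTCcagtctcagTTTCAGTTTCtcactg

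These promoters belong to genes of unequal difference. Trim30d differed by 2.20 ± 0.12, from a low ΔSAP mean of 5.39, and Gbp5 by 1.47 ± 0.10, also from a low mean. The antiviral enzyme gene Rsad2 stood at 11.75, 11.76 and 11.76 in FL and at 10.61, 10.59 and 10.59 in ΔSAP, and Oas3 at 11.13, 11.15 and 11.17 and at 10.24, 10.25 and 10.33. Ifit1, whose window holds 2 cores, differed by 0.29 ± 0.07 and did not pass (limma adjusted p = 0.0154). A match is a description of letters, not a bound site.

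MHC class I presentation genes, which cut, transport and load peptides, had 8 of 12 members higher in FL and 0 lower, with a median of 0.35. The immunoproteasome subunit gene Psmb9 stood at 9.07, 9.04 and 9.12 in FL, at 8.29, 8.33 and 8.23 in ΔSAP and at 8.09, 7.84 and 8.08 in control (0.79 ± 0.08, limma adjusted p = 0.000108). Psmb8 differed by 0.66 ± 0.06, Psmb10 by 0.60 ± 0.05 and the peptide transporter Tap1 by 0.59 ± 0.05. All 12 members were above control in FL and 9 were in ΔSAP (12.6% and 9.38% of all genes).

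NF-kB targets and cytokines had 16 of 37 members higher in FL and 3 lower, with a median of 0.19. The medians over control were 0.46 in FL and 0.08 in ΔSAP. Of its members Ccl2, Ccl7, Cxcl2, Cxcl5 and Icam1 belong to the SAP-dependent gain. Those that fell were Il33, an alarmin of barrier cells, the granulocyte growth factor Csf3 and the membrane chemokine Cx3cl1. Il33 stood at a low 5.42, 5.46 and 5.61 in FL, at 6.77, 6.98 and 6.85 in ΔSAP and at 8.14, 8.23 and 8.29 in control, so both lines were under control (-1.37 ± 0.07, limma adjusted p = 1.08e-06). Csf3 was above control in both lines and higher in ΔSAP, with a change of -0.41 ± 0.04, and Cx3cl1 changed by -0.48 ± 0.04 with ΔSAP at the control level.

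The NF-kB site is written GGGA, any 1 base and TTTCC. It was present in 7 of 27 genes of that list with a promoter (25.9%) and in 0.414% of all genes with a promoter. Of the 9 genes of the SAP-dependent gain with a promoter, 1 held it. That gene is Cxcl2, at chr5:90903777-90903836 on the plus strand, printed with the site in capitals.
Cxcl2: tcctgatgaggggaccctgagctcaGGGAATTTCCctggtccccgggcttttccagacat

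Stress genes were higher in FL as well. The unfolded protein and amino acid response slows protein synthesis and raises chaperones and amino acid enzymes when folding in the endoplasmic reticulum fails or amino acids run short, through the factors Atf4, Atf6 and Xbp1. Of 36 members 29 were higher in FL and 1 was lower, with a median of 0.41. The count lower was 0 with only the FL, ΔSAP and control arrays. It was also 0 without FL replicate 1 or 2 or any 1 ΔSAP replicate. The medians over control were 0.69 in FL and 0.26 in ΔSAP, so the ΔSAP line stood between the others.

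Ddit3, the stress factor CHOP, stood at 10.15, 10.16 and 10.11 in FL, at 9.02, 8.95 and 9.01 in ΔSAP and at 8.35, 8.33 and 8.40 in control (1.15 ± 0.04, limma adjusted p = 1.2e-07). It was the only member of the list past 2-fold between FL and ΔSAP. Sdf2l1, a chaperone partner of the endoplasmic reticulum, differed by 0.93 ± 0.05, the stress-induced Sesn2 by 0.84 ± 0.05 and Mthfd2, of mitochondrial folate metabolism, by 0.74 ± 0.04. Cth, which makes cysteine, stood at 9.57, 9.55 and 9.58 in FL and at 8.76, 8.86 and 8.87 in ΔSAP, which overlapped no FL array and differed from control by -0.07. Ddit4, an inhibitor of mTORC1 signalling, was lower in FL, at -0.29 ± 0.06 (limma adjusted p = 0.00457).

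The endoplasmic reticulum stress element, bound by Atf6 with NF-Y, is written CCAAT, any 9 bases and CCACG. It was present in 5 of 32 genes of the list with a promoter (15.6%) and in 0.13% of all genes with a promoter. The chaperone gene Hspa5 carries it at chr2:34772004-34772063 on the plus strand, Hsp90b1 at chr10:86705618-86705677 on the minus strand and Creld2 at chr15:88819499-88819558 on the plus strand. Capitals mark the element, which in Creld2 lies on the other strand.
Hspa5: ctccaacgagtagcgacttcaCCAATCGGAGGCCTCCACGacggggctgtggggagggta
Hsp90b1: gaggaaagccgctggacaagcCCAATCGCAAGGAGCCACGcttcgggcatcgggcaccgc
Creld2: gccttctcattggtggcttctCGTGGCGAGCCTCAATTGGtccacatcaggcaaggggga

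The differences of these 3 genes between FL and ΔSAP were 0.29 ± 0.03, 0.27 ± 0.03 and 0.72 ± 0.05, and each passed, with limma adjusted p from 8.42e-06 to 0.00029. Hspa5 stood at 13.26, 13.29 and 13.24 in FL and at 12.97, 12.99 and 12.98 in ΔSAP, near the top of the scale. The amino acid response core TGATGNAAT was in 1 of the 32 genes with a promoter and in 0.91% of all genes with one.

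Cholesterol synthesis moved in the other direction. Of 20 members 0 were higher and 19 were lower in FL than in ΔSAP, with a median of -0.57 and none past 2-fold. The remaining member, Ebp, changed by -0.09 ± 0.04 (limma adjusted p = 0.222). In FL 18 members were below control and 0 above (15.0% and 12.6% of all genes). In ΔSAP 9 were above and 0 below (9.38% and 11.7% of all genes), and 11 were not called against control. The median change from control was -0.37 in FL and 0.18 in ΔSAP. On opposite sides of control 7 members passed: Hmgcs1, Idi1, Fdft1, Lss, Cyp51, Nsdhl and Insig1. Of the 30212 probe sets with a mean of at least 4, 103 did so.

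Mvd, which makes isopentenyl pyrophosphate, stood at 9.02, 8.92 and 9.07 in FL, at a mean of 9.99 ± 0.03 (SD, n = 3) in ΔSAP and at 9.84, 9.55 and 9.79 in control (-0.99 ± 0.07, limma adjusted p = 1.05e-05). Hmgcs1, which makes HMG-CoA at the start of the pathway, stood at 11.26, 11.16 and 11.35 in FL, at 12.14, 12.19 and 12.10 in ΔSAP and at 11.84, 11.76 and 11.88 in control (-0.88 ± 0.06, limma adjusted p = 5.85e-06). The lanosterol demethylase Cyp51 changed by -0.81 ± 0.06 and the sterol reductase Hsd17b7 by -0.80 ± 0.06. In every one of the 20 genes all 3 FL arrays lay under all 3 ΔSAP arrays, an order that 17.9% of all genes showed.

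**Figure D5:**
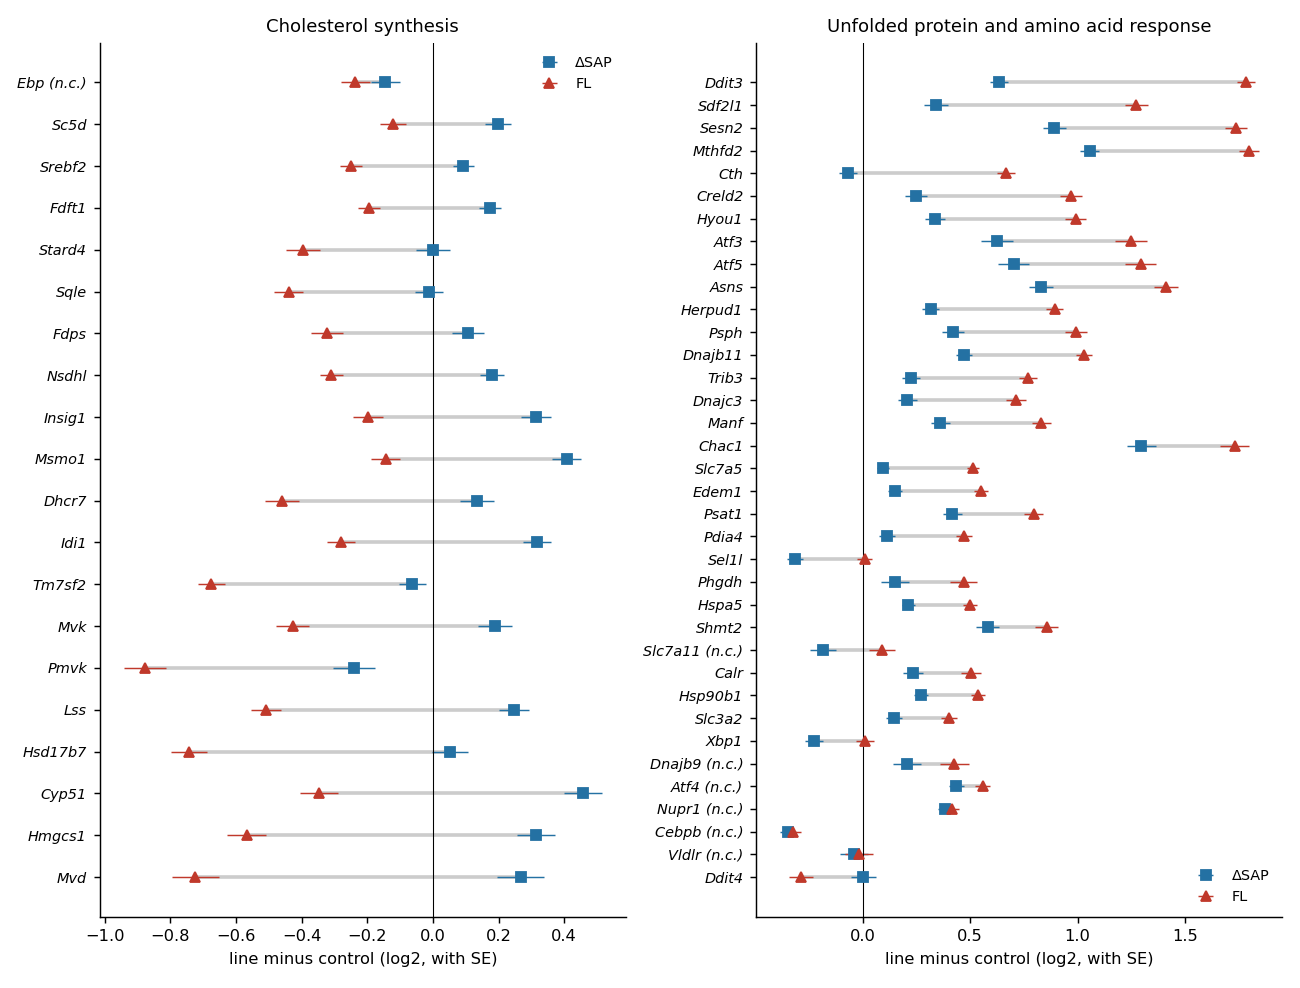
Log2 change from control with its SE in FL and in ΔSAP for the 20 cholesterol synthesis genes (left) and the 36 unfolded protein and amino acid response genes (right); n.c. marks members whose FL against ΔSAP difference did not pass. Cholesterol genes lie below control in FL, and most stress genes lie above control in both lines with FL further out.

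The sterol element TCACNCCAC is read by Srebp factors. It was present in 1 of 16 genes of the list with a promoter and in 1.22% of all genes with a promoter. That gene is Hmgcs1, shown at chr13:119690188-119690247 on the plus strand with the element in capitals.
Hmgcs1: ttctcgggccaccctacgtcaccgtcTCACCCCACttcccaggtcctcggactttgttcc

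Epithelial junction and keratin genes were lower in FL than in ΔSAP. Of 35 members 19 were lower and 1 higher, with a median of -0.32. Against control 15 were higher and 4 lower in FL, and 21 were higher and 0 lower in ΔSAP, with medians of 0.08 and 0.43. Of all genes 12.6% were higher and 15.0% lower than control in FL, and 9.38% and 11.7% in ΔSAP. Cldn4, a tight junction claudin, stood at 10.98, 10.95 and 11.03 in FL, at 12.23, 12.27 and 12.23 in ΔSAP and at 10.80, 10.80 and 10.85 in control (-1.26 ± 0.04, limma adjusted p = 6.6e-08). Mal2, a protein of apical transport, was above control in both lines, with 8.80, 8.84 and 8.98 in FL, 10.03, 10.02 and 10.08 in ΔSAP and a low 5.60, 5.52 and 5.77 in control (-1.17 ± 0.07). Cldn9 changed by -0.94 ± 0.06. Krt17, a keratin of basal and stressed epithelium, was the only member higher in FL, at 0.70 ± 0.04 (limma adjusted p = 5.09e-06).

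Among regulators of the epithelial state and of mesenchymal transition, 9 of 30 were lower in FL and 1 was higher, with a median of -0.04. Besides Esrp1, the transcription factor Foxc2 changed by -0.97 ± 0.07, the epithelial protease Prss8 by -0.95 ± 0.05 and the epithelial repressor Ovol1 by -0.86 ± 0.12, from a low FL mean. Klf5, a factor of basal epithelium, was higher, at 0.25 ± 0.04 (limma adjusted p = 0.00233), and did not pass without FL replicate 1 or 2 or ΔSAP replicate 2. Of the 14 mammary epithelial markers 7 were lower in FL and 0 higher, Krt7 by -0.42 ± 0.04 and Krt19 by -0.47 ± 0.07. The part of epithelial state in the other differences was not tested.

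Proliferation was examined next. The division machinery did not move one way between the lines. Of 34 mitosis genes 5 were higher in FL and 5 lower, with a median of 0.00 and none past 2-fold. The proliferation antigen Mki67 stood at 11.56, 11.53 and 11.54 in FL and at 11.79, 11.82 and 11.84 in ΔSAP (-0.28 ± 0.03, limma adjusted p = 0.000151). Foxm1, a driver of mitotic genes, was 0.22 ± 0.04 higher in FL (limma adjusted p = 0.00179), as was the kinase Aurka at 0.26 ± 0.04, while the kinetochore gene Ndc80 changed by -0.37 ± 0.06. These counts were not stable: the number higher ranged from 0 with each array centred on its median to 8 with a variance trend, and the number lower from 2 without FL replicate 1 to 5.

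Of 38 DNA replication genes 24 were above control in FL and 26 in ΔSAP (12.6% and 9.38% of all genes), with medians of 0.24 and 0.25, and between FL and ΔSAP 2 were higher and 2 lower. Those higher in FL were Mcm10, an initiation factor, at 0.48 ± 0.04 (limma adjusted p = 3.75e-05) and Mcm2, a helicase subunit, at 0.33 ± 0.04 (adjusted p = 0.000163). Mcm2 stood at 11.30, 11.32 and 11.39 in FL and on the control level in ΔSAP, where the arrays of both overlapped. Those lower were E2f8 at -0.22 ± 0.04 and Uhrf1 at -0.21 ± 0.04. The count lower was 0 with only the FL, ΔSAP and control arrays, without any 1 of the FL replicates and without ΔSAP replicate 3, and it was 1 without ΔSAP replicate 1 or 2 or control replicate 2 or 3. The count higher was 5 with a variance trend and 4 with further quantile normalization.

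Among regulators of entry into the cell cycle, 3 of 23 were higher in FL and 4 lower, with a median of -0.09. The D-type cyclin gene Ccnd2 stood apart. It had 10.70, 10.68 and 10.64 in FL, 8.89, 9.17 and 9.15 in ΔSAP, 7.18, 7.40 and 7.47 in control and 7.34, 7.25 and 7.34 in mutB1. FL exceeded ΔSAP by 1.61 ± 0.09, or 3.05-fold (limma adjusted p = 1.87e-06), and ΔSAP exceeded control by 1.72, so ΔSAP lay between control and FL. Myc was 0.30 ± 0.04 higher and Skp2, which targets the inhibitor p27 for degradation, 0.25 ± 0.04 higher. The inhibitor Cdkn2c (-0.56 ± 0.04), the retinoblastoma gene Rb1 (-0.44 ± 0.04) and its relative Rbl2 (-0.42 ± 0.06) were lower in FL, as was the antiproliferative Btg1 (-0.22 ± 0.03), and with a variance trend the count lower was 7. Rb1 stood at 9.34, 9.23 and 9.30 in FL, at 9.74, 9.72 and 9.73 in ΔSAP and at 10.28, 10.24 and 10.22 in control, without overlap.

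Of 39 mitogens and growth factor receptors 4 were higher and 5 lower in FL, with a median of 0.00. Erbb3, the neuregulin receptor, belongs to the ΔSAP gain, with 8.78, 8.99 and 8.91 in ΔSAP, 7.29, 7.31 and 7.43 in FL and 6.94, 6.76 and 7.01 in control (-1.55 ± 0.08, limma adjusted p = 1.21e-06). Its ligand Nrg1 went the other way and stood at 9.77, 9.77 and 9.70 in FL, at 9.26, 9.19 and 9.34 in ΔSAP and at 9.15, 9.14 and 9.10 in control (0.48 ± 0.04, limma adjusted p = 4.02e-05). The macrophage growth factor Csf1 was 0.23 ± 0.04 higher. The PDGF receptor Pdgfra changed by -0.35 ± 0.06 and was below control in both lines. The count higher ranged from 1 with arrays centred on their medians to 6 without control replicate 2, and the count lower from 2 without FL replicate 1 to 5.

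Genes of migration were examined next. Cytoskeletal targets of Srf and Mrtf, the best-known targets of this coactivator, had 4 of 38 members higher in FL and 3 lower, with a median of 0.00. The count higher was 2 with each array centred on its median. It was also 2 without any 1 of the FL or ΔSAP replicates or control replicates 1 or 3. The count lower was 5 with a variance trend. Against control 7 members were higher and 3 lower in FL, and 9 were higher and 3 lower in ΔSAP. The medians were 0.03 and 0.02, so the list moved little from control in either line. Of all genes 12.6% were higher and 15.0% lower than control in FL, and 9.38% and 11.7% in ΔSAP. Flnc, a muscle filamin, stood at 9.57, 9.53 and 9.62 in FL and at 8.83, 8.89 and 8.93 in ΔSAP, while control, at 9.52, 9.52 and 9.75, overlapped FL (0.69 ± 0.06, limma adjusted p = 5.05e-05). Tpm2, a tropomyosin, went the other way and belongs to the ΔSAP gain, with 6.62, 6.97 and 7.03 in ΔSAP and a low 5.80, 5.80 and 5.74 in FL (-1.09 ± 0.10, limma adjusted p = 5.3e-05). The smooth muscle actins Actg2 and Acta2 changed by -0.65 ± 0.08 and -0.36 ± 0.06, and zyxin (Zyx) by 0.27 ± 0.04. Tnc, the matricellular protein tenascin-C, did not separate the lines, with 7.54, 7.81 and 7.93 in FL, 7.47, 7.82 and 7.81 in ΔSAP and a low control mean of 5.83 (0.07 ± 0.12, limma adjusted p = 0.782).

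The CArG box is the Srf binding motif. It was present in 8 of 34 genes of this list with a promoter (23.5%) and in 1.62% of all genes with a promoter. Of the class genes with a promoter, 0 of 9 of the SAP-dependent gain and 1 of 21 of the ΔSAP gain held it. Of the SAP-dependent loss, 0 of 15 did. The class gene that held it is Ptprr, a receptor phosphatase gene, at chr10:116177162-116177221 on the plus strand, with the box in capitals.
Ptprr: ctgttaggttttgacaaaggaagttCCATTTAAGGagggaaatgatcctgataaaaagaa

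Integrin and focal adhesion genes had 4 of 29 members higher in FL and 6 lower, with a median of -0.09. Fermt1, the epithelial kindlin that activates integrins, stood at 9.10, 9.15 and 9.09 in FL, at 10.58, 10.75 and 10.71 in ΔSAP and at a low 5.44, 5.57 and 5.58 in control (-1.57 ± 0.05, limma adjusted p = 8.97e-08). Both lines were thus far above control, with ΔSAP further. The hemidesmosomal Itgb4 changed by -0.76 ± 0.05 with ΔSAP at the control level, and Itga1, a collagen receptor chain, by -0.39 ± 0.04. The fibronectin receptor chain Itga5 was 0.19 ± 0.04 higher. With each array centred on its median none of the 4 rises passed.

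Extracellular proteases and their inhibitors had 4 of 30 members higher and 5 lower. With each array centred on its median 2 were higher, and without FL replicate 1 or ΔSAP replicate 3 the count lower was 3. Mmp9, the gelatinase, stood at 11.37, 11.32 and 11.37 in FL, at 10.62, 10.76 and 10.72 in ΔSAP and at 10.79, 10.78 and 10.77 in control, where the last 2 groups did not overlap but lay close (0.65 ± 0.04, limma adjusted p = 5.85e-06). Mmp19 was 0.62 ± 0.08 higher, from a low ΔSAP mean, and the urokinase receptor Plaur 0.31 ± 0.05 higher. The plasminogen activator gene Plat stood at 8.90, 8.88 and 9.05 in FL and at 9.71, 9.71 and 9.79 in ΔSAP (-0.79 ± 0.06, limma adjusted p = 1.99e-05). Adamts1 changed by -0.40 ± 0.04 and Mmp14, the membrane-type collagenase, by -0.21 ± 0.04.

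Guidance ligands and receptors, which steer axons and migrating cells, had 7 of 35 members higher and 10 lower, with a median of 0.00. Sema7a was 0.65 ± 0.06 higher and Sema3b 0.47 ± 0.05 higher, both from levels under control in both lines. Slit2, a repulsive ligand, stood at 7.29, 7.45 and 7.41 in ΔSAP and at a low 6.27, 6.16 and 6.32 in FL (-1.13 ± 0.10, limma adjusted p = 3.64e-05). The receptor Nrp1 stood at 7.93, 7.80 and 8.07 in FL, at 8.63, 8.66 and 8.68 in ΔSAP and at 8.92, 8.95 and 9.05 in control (-0.72 ± 0.07, limma adjusted p = 4.93e-05).

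Matricellular and matrix genes had 12 of 35 members lower in FL and 3 higher, with a median of -0.05. The basement membrane collagens Col4a1 and Col4a2 changed by -0.39 ± 0.04 and -0.51 ± 0.04, with ΔSAP within 0.07 of control for both. Those higher in FL were Ccn4 (0.82 ± 0.07), Ccn5 (0.45 ± 0.07) and Ccn1 (0.36 ± 0.04), of the same matricellular family. Ccn3, also of that family, changed by -0.39 ± 0.06. Ccn5 nevertheless lay far below control in both lines, with 9.02, 8.81 and 9.02 in FL and 8.45, 8.62 and 8.44 in ΔSAP against 10.94, 10.95 and 10.90.

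Signalling lists close the comparison. TGF-beta and BMP response genes had 11 of 27 members lower in FL and 1 higher, with a median of -0.12. The activin subunit gene Inhba stood at 9.82, 9.74 and 9.88 in FL, at 10.61, 10.72 and 10.67 in ΔSAP and at 9.30, 9.31 and 9.39 in control, so both lines were above control (-0.86 ± 0.05, limma adjusted p = 2.12e-06). Without FL replicate 1 the count lower was 7. The count higher was 0 with only the FL, ΔSAP and control arrays and without any 1 of the FL or ΔSAP replicates.

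Immediate early genes and feedback genes of ERK signalling had 5 of 30 members higher and 6 lower. Atf3 was 0.62 ± 0.08, the phosphatase Dusp5 0.52 ± 0.07 and Egr1 0.45 ± 0.05 higher in FL. The feedback inhibitor Spry1 stood at 10.49, 10.39 and 10.53 in FL, at 11.07, 10.95 and 11.01 in ΔSAP and at 11.74, 11.66 and 11.69 in control (-0.54 ± 0.05, limma adjusted p = 4.09e-05). Egr3, Etv1 and Junb were lower as well.

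Targets of p53 had 3 of 19 members higher and 5 lower, and the count lower was 3 without FL replicate 1. The kinase Plk2 stood at 10.47, 10.51 and 10.39 in FL, at 9.69, 9.67 and 9.79 in ΔSAP and at 9.64, 9.69 and 9.70 in control, so the last 2 overlapped (0.74 ± 0.07, limma adjusted p = 3.62e-05). Perp, a desmosomal p53 target, was at the control level in FL and higher in ΔSAP, with 10.19, 10.29 and 10.27 against 9.38, 9.37 and 9.48 (-0.84 ± 0.06, limma adjusted p = 1.6e-05).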

How the data were processed

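The authors deposited log2 expression values for 34760 probe sets on 12 arrays, made by RMA, per the series design text with affy of Bioconductor 2.4. R 2.10.0 is also named, in the submitters' processing notes. The probe set definition, like the build and any scan batches, was not given in the sources used here. The RMA step shares its quantiles among arrays, so a shift of most genes would not show, and it gives no detection call. The number of arrays, 3 per line, limits the precision.

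GEO's platform annotation gave 21640 probe sets 1 symbol, 1321 several and 11799 none. RefSeq (GRCm38.p6) updated 21553 of the single symbols. A gene is its probe set with the highest mean over 12 arrays, 19937 in all. Probe sets with several symbols were not named, and list members without a probe set of their own were not analysed here, and 1 gene list is not reported here.

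Differences were tested with limma 3.58.1 (R 4.3.3, lmFit and eBayes) in 1 fit of 12 arrays and 4 line means, and p-values were adjusted by Benjamini-Hochberg over every probe set. The fit was tested on simulated data. No array pair was identical, and the number of columns without a sample was 0. Genes were named by rule: in each class the 8 largest changes (4 outside the classes) and, in each list, up to 4 members per direction among those passing, with Mrtfa, Mrtfb, Srf and Tnc always. Other genes named, such as full class memberships and promoter examples, were chosen after their values were seen. The members and lists were chosen with earlier results of these data known. Alternatives were other scalings, filters, class limits, gene summaries, variance models and leaving out each FL, ΔSAP or control array.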

Additional observations from a re-analysis of the deposited data

Results flagged for a closer look

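Among the genes named by rule, 7 passed on opposite sides of control in the FL and ΔSAP lines. Each had a limma adjusted p of at most 0.01 in each line against control and between the lines, with no minimum fold. FL was above and ΔSAP below control for As3mt (FL minus ΔSAP of 2.00) and Icam1 (1.57). FL was below and ΔSAP above control for E330013P04Rik (-2.60, with low means in FL and control), Sulf2 (-1.74), Airn (-1.71), Hmgcs1 (-0.88) and Cyp51 (-0.81). The last 2 belong to cholesterol synthesis, where 7 members passed in this way, not all of them named by rule.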

How the results depend on the processing

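No named gene changed direction under an alternative that was run, but the medians of the mitosis, mitogen, Srf and Mrtf, protease and guidance lists, all near 0, changed sign under some. With no minimum fold 1983 probe sets were higher in FL and 1976 lower, against 75 and 100 at 2-fold. With near control set to within 1.2-fold the SAP-dependent gain held 10 probe sets and the SAP-dependent loss 18, and with 2-fold the SAP-dependent gain held 35 and the ΔSAP loss 4. Leaving out each FL, ΔSAP and control array in turn gave 69 to 81 higher and 95 to 109 lower, with 19 to 27 for the SAP-dependent gain, 32 to 38 for the ΔSAP gain, 25 to 29 for the SAP-dependent loss, 2 for the ΔSAP loss and 0 on opposite sides. Centring each array on its median gave 62 higher and 105 lower. Replicate numbers did not pair the cultures (correlations of deviations from -0.20 to 0.17), and with the number as a replicate block 74 were higher and 101 lower, with classes of 23, 35, 28, 2 and 0. Of 2805 values of 165 named genes under 17 alternatives, 2603 kept their side of the threshold and 202 no longer passed, and all 46 genes with a change of at least 2-fold kept it. Low signal limits genes with a mean under 6.35.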

Other observations

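Neighbouring genes were compared after the values were seen, using the gene order of RefSeq (GRCm38.p6). Of the called genes 133 could be placed, and 11 of them had a called gene next to them, all in the same direction. The pairs were Ccl2 and Ccl7, Serpinb6b and Serpinb9, Serpinb9 and Serpinb9b, and Ccnd2 and Parp11, all higher in FL, and Car9 and Tpm2, and Pate9 and Pate14, all lower. No neighbouring pair was called in opposite directions, but the count rests on 6 pairs. In all, 139 of 19937 genes were called between FL and ΔSAP. How often any gene has a called neighbour was not counted, so the pairs are only a description. The clade B serpins Serpinb9b (1.70 ± 0.10) and Serpinb6b (1.57 ± 0.12), protease inhibitors related to those that block granzymes, stood 3.22 and 3.34 above control in FL and 1.52 and 1.77 in ΔSAP. The Serpinb and Pate families hold close relatives whose probes may share signal, and its part in these pairs was not tested.

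Srgn, the proteoglycan serglycin, was 1.49 ± 0.09 higher in FL than in ΔSAP (limma adjusted p = 4.61e-06) without being called 2-fold against control in either line, which lay between them: it stood at 7.97, 8.15 and 8.38 in FL, at 7.26, 7.23 and 7.23 in control and at 6.57, 6.69 and 6.76 in ΔSAP. The mutB1 line was far above all of them, at 12.23, 12.08 and 12.11. The chemokine receptor Cxcr4 lay the other way, with 6.94, 7.08 and 7.16 in FL, 7.84, 7.86 and 7.96 in control and 8.30, 8.36 and 8.44 in ΔSAP (-1.31 ± 0.08, limma adjusted p = 3.43e-06). Both were chosen after their values were seen.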
